A study of Ficus obtusifolia with 4 samples.

Results

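In 1698 of 10254 tested transcripts (16.6%) of Ficus obtusifolia flowers, the change in abundance after a foundress wasp was introduced differed between gall and seed flowers by at least 1.5 on the log2 scale, or 2.83-fold. The value used was the difference in stage change: log2 of pollinated over receptive RPKM in gall flowers, minus the same log2 ratio in seed flowers. RPKM is reads per kilobase of transcript and per 1000000 mapped reads. A difference of at least 1.5 was found for 828 transcripts (8.07%) and a difference of at most -1.5 for 870 (8.48%). Transcripts were tested where each of the 4 libraries had at least 10 reads and at least 1 library had an RPKM above 20, which left 10254 of the 54550 in the assembly. These values chose the members, so differences, stage changes and counts are given as descriptions without a test.

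The study put 1 female Pegoscapus hoffmeyerii into each bagged syconium (the closed inflorescence of a fig) of a wild tree. Pollinated gall flowers, receptive gall flowers, pollinated seed flowers and receptive seed flowers were the groups, where pollinated means collected 24 hours after entry and receptive means collected before any wasp was let in. Gall flowers were those nearest the lumen and seed flowers those nearest the syconium wall, on that single tree. Flowers were sorted by position alone and pooled, with 1 library per group, so the spread between samples of a group is not known. Intervals below cover counting error only, and since counts may include both reads of a pair they may be too narrow. Fewer cells of a type and less RNA per cell cannot be told apart in such pooled flowers.

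A fig wasp foundress brings pollen into the syconium and lays eggs through the styles of some flowers, so that a syconium yields both wasps and seeds. A flower with an egg forms a gall around the larva, whereas a pollinated flower without an egg forms a seed. Pistils near anthesis are covered by a cuticle of cutin and wax, make flavonoids and volatile terpenes, and carry receptors of the innate immune system. Pollination is known to be followed by changes in cell wall enzymes, hormones and cell division.

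Mapped reads numbered 58969477 in pollinated gall, 51063005 in receptive gall, 22141107 in pollinated seed and 11584069, the lowest number, in receptive seed flowers. Of these, 82.3 to 85.8% fell on tested transcripts. The members with a difference of at least 1.5 took 3.6% of the reads in pollinated and 2.01% in receptive gall flowers, and 3.0% in pollinated and 6.85% in receptive seed flowers. Those at or below -1.5 took 6.88% in pollinated and 10.3% in receptive gall flowers, and 6.85% in pollinated and 2.46% in receptive seed flowers. Receptive seed flowers thus had the highest share of reads on the first set and the lowest share on the second.

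The seed libraries moved in most members, where moving means a stage change of at least 2-fold (1 on the log2 scale) in either direction. Among the 828 members with a positive difference, only the seed libraries moved in 388 (46.9%) and only the gall libraries in 199 (24.0%). Both moved in opposite directions in 53 and in the same direction in 34, and neither passed 2-fold in 154. Among the 870 with a negative difference, only the seed libraries moved in 612 (70.3%) and only the gall libraries in 91 (10.5%), with 88 opposite, 20 in the same direction and 59 with neither. Over all tested transcripts the seed libraries alone moved in 17.5% and the gall libraries alone in 5.92%. A gall stage change of at least 1 was found in 5.69% and of at most -1 in 5.6% of them, beside 12.2% and 10.6% for seed flowers.

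**Figure D1:**
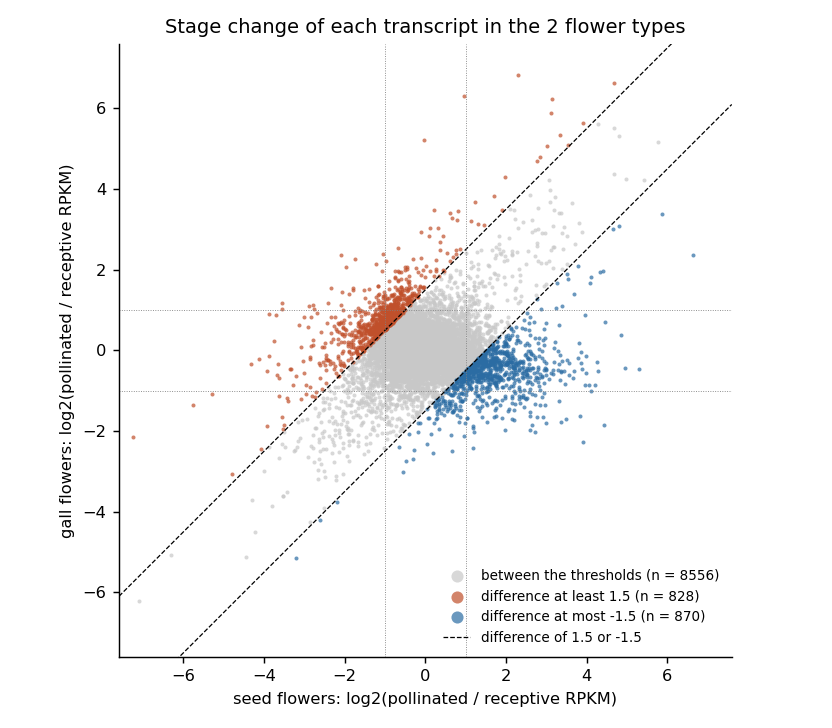
Each point is 1 of the 10254 tested transcripts, with the seed stage change on the x axis and the gall stage change on the y axis (both log2 of pollinated over receptive RPKM). Dotted lines mark 2-fold changes and dashed lines a difference of 1.5 or -1.5, and the members with a negative difference extend mainly to the right, where only the seed stage change is past 2-fold.

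In most members the gap between the 2 flower types was wider in the receptive than in the pollinated pair of libraries. The receptive gap rests on a single seed library, the smallest, so flower type and that library cannot be told apart. In members with a positive difference the median log2 ratio of gall over seed RPKM was 0.11 in pollinated and -1.77 in receptive flowers. In members with a negative difference it was -0.02 in pollinated and 2.18 in receptive flowers. A gap of at least 2-fold between receptive flowers that was under 2-fold between pollinated flowers was found in 643 of the 828 and in 642 of the 870, beside 31.1% of all tested transcripts. The opposite order, a gap of 2-fold between pollinated flowers only, was found in 99 and in 57, beside 4.98% of all tested transcripts. In 29 and 27 members the gap was past 2-fold at both stages and changed side. Over all tested transcripts, 13.5% differed by at least 2-fold between pollinated gall and seed flowers, and 39.6% between receptive gall and seed flowers.

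**Figure D2:**
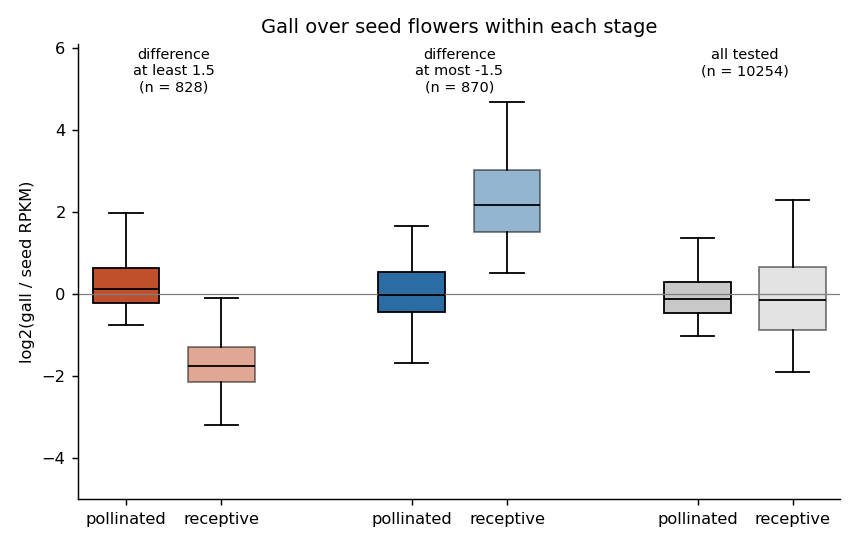
Boxes show the median and quartiles, and whiskers the 5th to 95th percentiles, of log2 gall over seed RPKM within pollinated and within receptive flowers. The receptive medians of -1.77 and 2.18 stand apart from 0, while the pollinated medians are 0.11 and -0.02.

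Receptive seed flowers were the library that stood farthest from the other 3 in 454 members with a positive difference (54.8%) and in 695 with a negative one (79.9%), beside 48.4% of all tested transcripts. They had the highest RPKM in 688 of the 828 and the lowest in 789 of the 870, beside 39.5% and 33.2% of all tested transcripts. Receptive gall flowers were at the other end, with the lowest RPKM in 621 of the 828 and the highest in 616 of the 870. The shares over all tested transcripts were 33.5% and 21.8%. The same RPKM values chose the members, so such extremes are partly built in. The median RPKM of the positive members was 37.4 in pollinated and 19.5 in receptive gall flowers, and 26.8 in pollinated and 58.6 in receptive seed flowers. For the negative members it was 35.6 in pollinated and 52.4 in receptive gall flowers, and 34.1 in pollinated and 11.0 in receptive seed flowers. A result that turns on receptive seed flowers rests on the smallest library, where the median negative member had 173 reads and the median positive member 404.

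**Figure D3:**
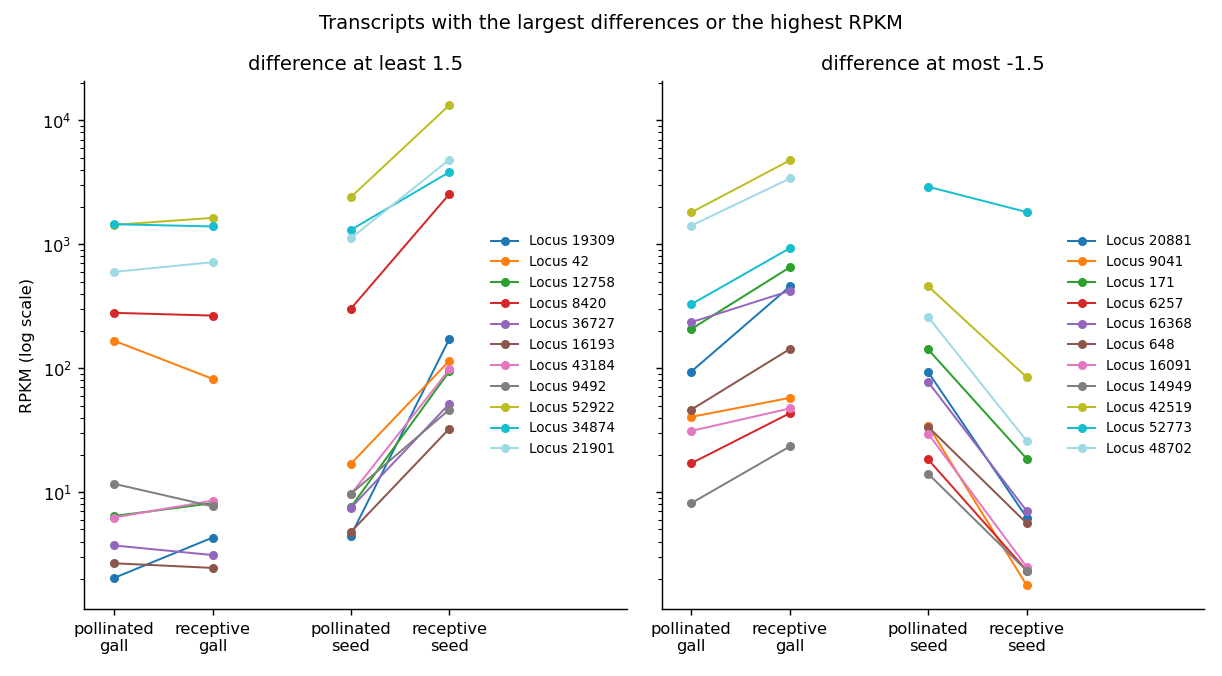
RPKM in the 4 libraries, on a log scale, of the transcripts with the largest differences or the highest mean RPKM, with pollinated left of receptive within each flower type. Receptive seed flowers are the highest library for every transcript in the left panel but Locus 42, and the lowest for every transcript in the right panel but Locus 52773.

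Negative differences included enzymes and transporters that make the plant cuticle. A list of 42 tested transcripts, picked by description words of cutin and wax synthesis and export, was put together after values were seen. In it 17 (40.5%) were at or below -1.5 and 0 at or above 1.5, and the median difference was -0.80. The words also took in lipid enzymes that are not particular to the cuticle. Among the members these were Locus 5092, a beta-ketoacyl-ACP synthase, and Locus 622 and Locus 291, 1-acylglycerol-3-phosphate acyltransferases. Locus 648, an ABC transporter of the G family (ABCG32, which exports cutin precursors in Arabidopsis), had 46.3 RPKM in pollinated and 143 in receptive gall flowers, and 33.7 in pollinated and 5.61 in receptive seed flowers. Its level was thus lower in pollinated gall flowers but higher in pollinated seed flowers than at the receptive stage, with a difference of -4.21 (95% interval -4.40 to -4.04). Locus 4091, a homologue of CER1, which makes wax alkanes in Arabidopsis, had 35.9 RPKM in pollinated and 123 in receptive gall flowers, and 14.9 in pollinated and 5.17 in receptive seed flowers. Locus 3988, like the acyltransferase DCR of cutin synthesis, had 50.7 RPKM in pollinated and 126 in receptive gall flowers, and 31.5 in pollinated and 6.23 in receptive seed flowers. Both had the same pattern of high receptive gall and low receptive seed flowers. A more abundant DCR-like transcript, Locus 14026, did not, with a difference of -0.29. It had 251 RPKM in pollinated and 306 in receptive gall flowers, and 180 in both pollinated and receptive seed flowers.

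The lowest difference of all tested transcripts, -6.29, belonged to Locus 9392, a long-chain acyl-CoA synthetase, an enzyme that activates fatty acids for wax and cutin. It had 28.3 RPKM in pollinated and 103 in receptive gall flowers, and 22.8 in pollinated and 1.06 in receptive seed flowers, the last from only 10 reads. Another 4 transcripts with this or a like description, of 351 to 1121 bp, were also past the threshold. Whether these come from separate genes is not known. Among them, Locus 28003 had 138 RPKM in pollinated and 355 in receptive gall flowers, and 137 in pollinated and 88.1 in receptive seed flowers. Locus 795, like the Arabidopsis wax gene WAX2, had 87.4 RPKM in pollinated and 105 in receptive gall flowers, and 39.5 in pollinated and 3.77 in receptive seed flowers. In that transcript the seed libraries moved and the gall libraries did not. Another WAX2-like transcript, Locus 7683, had a difference of -0.16. In a separate list of 64 cuticle and lipid transfer transcripts, 10 were at or below -1.5 and 2 at or above 1.5.

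The first steps of phenylpropanoid synthesis, which turn phenylalanine into precursors of flavonoids and lignin, had 10 of 25 tested transcripts (40%) at or below -1.5 and 0 at or above 1.5. The median stage change of the list was -0.44 in gall and 0.73 in seed flowers. Locus 21721, cinnamate 4-hydroxylase, had 378 RPKM in pollinated and 556 in receptive gall flowers, and 119 in pollinated and 22.0 in receptive seed flowers. Its difference was -2.99 (95% interval -3.24 to -2.75), with a seed stage change of 2.43 and a gall stage change of -0.56. Locus 30420, phenylalanine ammonia-lyase, the entry enzyme, had 365 RPKM in pollinated and 797 in receptive gall flowers, and 109 in pollinated and 21.7 in receptive seed flowers. It is 171 bp long and had only 43 reads in receptive seed flowers. Locus 43476, Locus 33170, Locus 51955, Locus 33084 and Locus 28403, also negative members, were 128 to 173 bp long. Short transcripts with the same description may share reads. Locus 12023, 4-coumarate CoA ligase, had 69.2 RPKM in pollinated and 138 in receptive gall flowers, and 42.1 in pollinated and 14.4 in receptive seed flowers. Gall flowers were above seed flowers at both stages in these transcripts, with the wider gap at the receptive stage. In the list 21 differences were below 0 and 4 above. Cinnamate 4-hydroxylase transcripts more abundant than Locus 21721 included Locus 13428, at 0.80, and Locus 20873, at -0.15. Locus 13428 had 1175 RPKM in pollinated and 988 in receptive gall flowers, and 510 in pollinated and 745 in receptive seed flowers. Locus 769, another 4-coumarate CoA ligase, was at 0.71.

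Chalcone synthase, the first enzyme of flavonoid synthesis, had members in both directions. Of 34 tested transcripts, 4 were at or below -1.5 and 3 at or above 1.5, and the median difference was 0.29. Once the trend with length was removed, 8 were at or below -1.5 and 2 at or above 1.5, and the median was -0.08. The abundant Locus 42519 had 1807 RPKM in pollinated and 4760 in receptive gall flowers, and 459 in pollinated and 84.5 in receptive seed flowers, a difference of -3.84 (95% interval -4.04 to -3.64). Its level in gall flowers was above that in seed flowers at each stage. The 3 on the positive side were 110 to 135 bp long, and Locus 33478 among them had 162 RPKM in pollinated and 57.7 in receptive gall flowers, and 24.2 in pollinated and 34.7 in receptive seed flowers. Near-identical copies may share reads, so single chalcone synthase transcripts are uncertain.

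Later flavonoid enzymes had 6 of 26 tested transcripts (23.1%) at or below -1.5 and 0 at or above 1.5. Locus 1881, flavonoid 3'-hydroxylase, which adds a hydroxyl group to the flavonoid B ring, had 66.7 RPKM in pollinated and 106 in receptive gall flowers, and 24.5 in pollinated and 4.58 in receptive seed flowers. More abundant transcripts with this description were inside the threshold, Locus 22685 at 0.20, Locus 13079 at -0.58 and Locus 12598 at -1.40. Locus 22685, of 210 bp, had 1057 RPKM in pollinated and 989 in receptive gall flowers, and 359 in pollinated and 385 in receptive seed flowers. Locus 2057, flavonol synthase, was at -1.54. Locus 19337, chalcone isomerase, which closes the flavonoid ring, had 515 RPKM in pollinated and 632 in receptive gall flowers, and 175 in pollinated and 63.3 in receptive seed flowers. Chalcone isomerase had 3 of 16 at or below -1.5 and 1 at or above 1.5. Its most abundant transcript, Locus 45660 of 122 bp, was inside the threshold at -0.47, and Locus 48803 of 140 bp was at 0.44. Of 29 lignin transcripts 3 were negative members (10.3%), close to the 8.48% of all tested transcripts.

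Terpene synthases make scent and defence compounds. Locus 20881, germacrene D synthase, which forms a sesquiterpene, had 93.9 RPKM in pollinated and 457 in receptive gall flowers, and 93.3 in pollinated and 6.23 in receptive seed flowers. The levels were nearly equal in pollinated flowers and 73.3-fold apart in receptive ones, and the difference was -6.19 (95% interval -6.61 to -5.79). Another germacrene D synthase transcript, Locus 16154, had 147 RPKM in pollinated and 512 in receptive gall flowers, and 178 in pollinated and 90.6 in receptive seed flowers. The most abundant transcript of this enzyme, Locus 8547, was inside the threshold at -0.29. It had 371 RPKM in pollinated and 754 in receptive gall flowers, and 360 in pollinated and 597 in receptive seed flowers. Locus 32594, with the same description, was at -1.18. Locus 5434, described as like a myrcene synthase, which forms a monoterpene, had 21.3 RPKM in pollinated and 106 in receptive gall flowers, and 44.1 in pollinated and 42.7 in receptive seed flowers. In this one only the gall libraries moved. Of the 14 tested terpenoid transcripts by the words used, 2 were at or below -1.5 and 0 at or above 1.5.

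Photosynthesis transcripts were lower in pollinated than in receptive gall flowers. This held for all 20 tested, and all had a negative difference, with a median stage change of -1.08 in gall and 0.08 in seed flowers. In 11 of the 20 the level in pollinated gall flowers was at most 0.5 times that in receptive ones, and 5 (25%) had a difference at or below -1.5. Locus 21381, protochlorophyllide reductase, a light-dependent step of chlorophyll synthesis, had 9.73 RPKM in pollinated and 63.0 in receptive gall flowers, and 31.1 in pollinated and 38.6 in receptive seed flowers. Locus 264, the light-harvesting protein LHCB1 and the most abundant of the list, had 119 RPKM in pollinated and 290 in receptive gall flowers, and 259 in pollinated and 243 in receptive seed flowers, a difference of -1.38 that stayed inside the threshold. The pollinated gall library was the low one in both transcripts. Receptive seed flowers were instead lowest in other members, Locus 2249, Locus 16428 and Locus 9686. Locus 16428, a light-harvesting protein, had 13.2 RPKM in pollinated and 31.0 in receptive gall flowers, and 26.8 in pollinated and 9.88 in receptive seed flowers. Reads of the list summed over all its 72 transcripts were 1370 RPM (reads per 1000000 mapped reads) in pollinated and 2150 in receptive gall flowers, and 1750 in pollinated and 1670 in receptive seed flowers.

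Immune receptors of the NBS-LRR type, which detect pathogen proteins inside the cell, had 19 of 62 tested transcripts (30.6%) at or below -1.5 and 1 at or above 1.5. The median stage change was -0.24 in gall and 0.68 in seed flowers. Locus 1070, a CC-NBS-LRR protein, had 15.5 RPKM in pollinated and 21.7 in receptive gall flowers, and 18.7 in pollinated and 1.91 in receptive seed flowers. Locus 14949, of the same class, had 8.15 RPKM in pollinated and 23.4 in receptive gall flowers, and 14.1 in pollinated and 2.32 in receptive seed flowers, and its difference was -4.13. Receptive seed flowers were the low library in both. The exception on the positive side, Locus 2132, had 37.9 RPKM in pollinated and 21.2 in receptive gall flowers, and 17 in pollinated and 27.9 in receptive seed flowers. Reads may be divided among transcripts of related receptor genes.

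Among proteins of the cell wall, negative members outnumbered positive ones. Locus 171, pectin methylesterase, which removes methyl groups from wall pectin, had 207 RPKM in pollinated and 653 in receptive gall flowers, and 142 in pollinated and 18.6 in receptive seed flowers. The difference was -4.59 (95% interval -4.82 to -4.37), and both flower types moved, in opposite directions. Pectin enzymes had 6 of 36 at or below -1.5 (16.7%) and 1 at or above 1.5. Other cell wall proteins had 9 of 45 (20%) and 1. Locus 776, cellulose synthase, had 85.2 RPKM in pollinated and 143 in receptive gall flowers, and 71.1 in pollinated and 12.1 in receptive seed flowers. Locus 10755, like extensin, a structural wall glycoprotein, had 75.1 RPKM in pollinated and 262 in receptive gall flowers, against 2.59 in pollinated and 2.94 in receptive seed flowers. It was a gall flower transcript at both stages and moved there alone. Locus 416, a xyloglucan endotransglucosylase/hydrolase, which cuts and rejoins wall xyloglucan, went the other way with 44.7 RPKM in pollinated and 34.6 in receptive gall flowers, and 10.6 in pollinated and 35 in receptive seed flowers.

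Sugar metabolism and transport had 9 of 45 tested transcripts (20%) at or below -1.5 and 2 at or above 1.5. Locus 5249, sucrose synthase, which splits sucrose for use in growing tissue, had 136 RPKM in pollinated and 295 in receptive gall flowers, and 75 in pollinated and 47.3 in receptive seed flowers. Only its gall libraries moved. Locus 4978, a sugar transporter of the ERD6-like family, was higher after pollination in both flower types, with 140 RPKM in pollinated and 36.6 in receptive gall flowers, and 91.4 in pollinated and 4.57 in receptive seed flowers. ABC transporters and aquaporins had 12 of 50 (24.0%) at or below -1.5 and 0 at or above 1.5. Locus 20967, an aquaporin or water channel, had 190 RPKM in pollinated and 380 in receptive gall flowers, and 156 in pollinated and 54.2 in receptive seed flowers.

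Peroxidases, which oxidise phenolics in the wall, had 7 of 49 tested transcripts with related oxidative enzymes (14.3%) at or below -1.5 and 2 at or above 1.5. Locus 2176, a cationic peroxidase, had 262 RPKM in pollinated and 82.5 in receptive gall flowers, and 68.7 in pollinated and 4.06 in receptive seed flowers. It was higher after pollination in both types and by more in seed flowers. Locus 6315, a respiratory burst oxidase, which makes superoxide, had 66.0 RPKM in pollinated and 99.4 in receptive gall flowers, and 72.1 in pollinated and 12.7 in receptive seed flowers. Glutathione and thioredoxin enzymes had 0 of 47 past either threshold.

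Heat shock proteins and other chaperones, which fold proteins, had 8 of 75 (10.7%) at or below -1.5 and 4 at or above 1.5. The share at or below -1.5 was 8.48% over all tested transcripts. With the trend with length removed, 9 and 1 of the list were past the thresholds. Locus 11848, described only as a heat shock protein, had 346 RPKM in pollinated and 730 in receptive gall flowers, and 711 in pollinated and 114 in receptive seed flowers. Its receptive seed level was low, and its difference was -3.71 (95% interval -3.84 to -3.59). Locus 8031, HSP70, had 410 RPKM in pollinated and 105 in receptive gall flowers, and 269 in pollinated and 247 in receptive seed flowers. Here the receptive gall library was the low one, and the difference was 1.84 (95% interval 1.77 to 1.92).

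**Figure D4:**
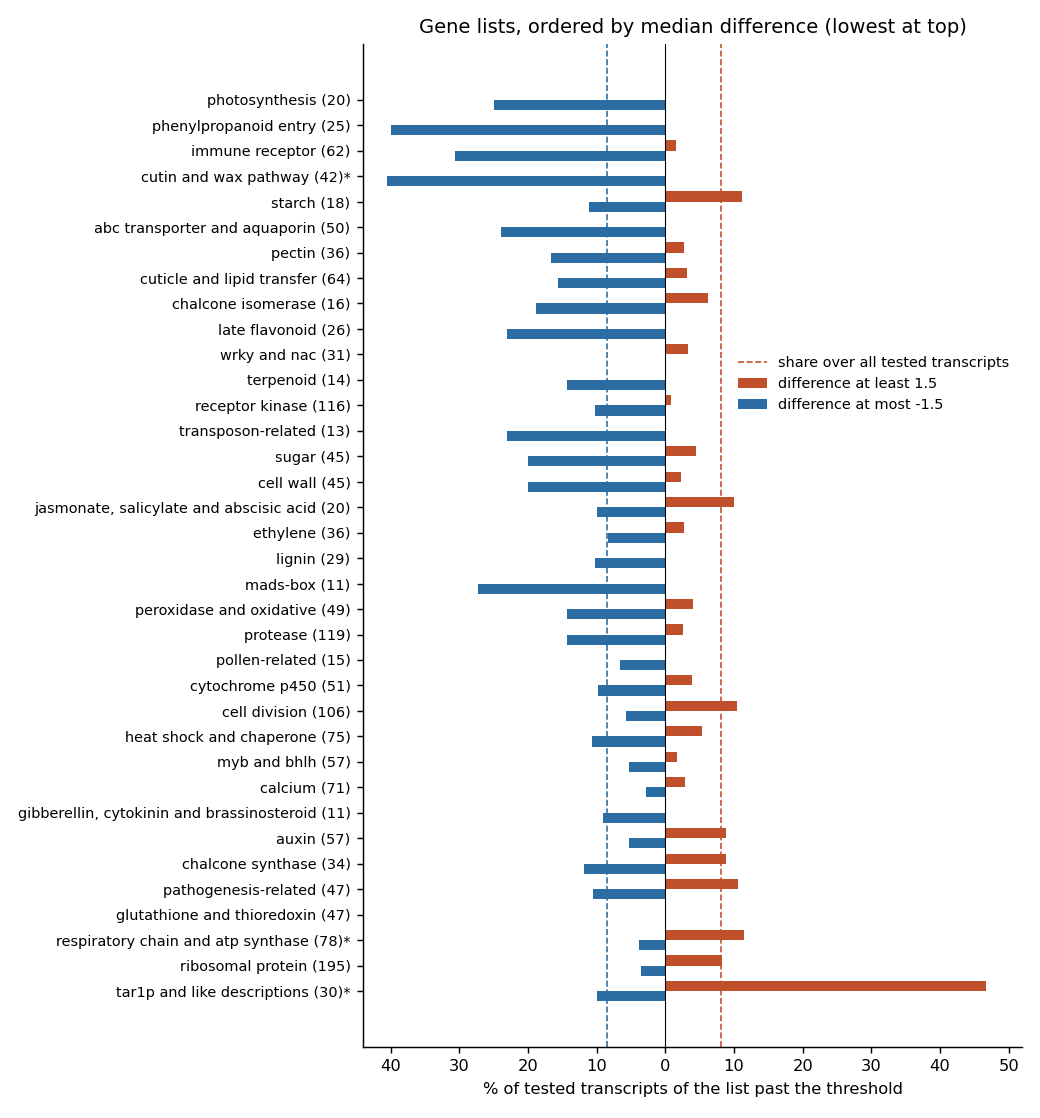
For each gene list, bars to the right show the percentage of its tested transcripts with a difference of at least 1.5 and bars to the left the percentage at or below -1.5. Numbers of tested transcripts are in brackets, an asterisk marks lists put together after values were seen, and dashed lines mark the 8.07% and 8.48% of all tested transcripts. The lists hold only transcripts with a description, of which 3.55% were at or above 1.5 and 8.78% at or below -1.5.

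Locus 18586, ethylene response factor 3, which binds promoters of ethylene-responsive genes, had 71.1 RPKM in pollinated and 300 in receptive gall flowers, and 71.3 in pollinated and 93.7 in receptive seed flowers, so that only receptive gall flowers stood out. Locus 28963, an Aux/IAA protein, a repressor of auxin responses, had 188 RPKM in pollinated and 383 in receptive gall flowers, and 301 in pollinated and 149 in receptive seed flowers. Auxin transcripts had 5 of 57 at or above 1.5 (8.77%) and 3 at or below -1.5, and ethylene transcripts 1 of 36 and 3. Over all tested transcripts the shares were 8.07% and 8.48%. MADS-box factors, the regulators of floral organ identity, had 3 of 11 (27.3%) at or below -1.5 and 0 at or above 1.5. Locus 485, the most abundant MADS-box member, had 130 RPKM in pollinated and 142 in receptive gall flowers, and 173 in pollinated and 64.6 in receptive seed flowers. Locus 43533, a MYB transcription factor, was a seed flower transcript, with 1.69 RPKM in pollinated and 9.37 in receptive gall flowers, and 21.5 in pollinated and 26.3 in receptive seed flowers. The WRKY and NAC factors had 1 of 31 at or above 1.5 and 0 at or below -1.5.

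Receptor kinases had 12 of 116 at or below -1.5 (10.3%), close to the 8.48% of all tested transcripts, and 1 at or above 1.5. Locus 146, like FERONIA, a kinase that in Arabidopsis takes part in pollen tube reception, had 127 RPKM in pollinated and 299 in receptive gall flowers, and 92.7 in pollinated and 76.7 in receptive seed flowers. Receptive gall flowers alone were high in it. Cytochromes P450, a family of oxidising enzymes, had 5 of 51 (9.8%) at or below -1.5 and 2 at or above 1.5. In the same order, MYB and bHLH factors had 3 of 57 (5.26%) and 1, calcium signalling 2 of 71 (2.82%) and 2, and starch enzymes 2 of 18 (11.1%) and 2. Proteases had a larger share, 17 of 119 (14.3%), at or below -1.5 and 3 at or above 1.5. Locus 30233, an aspartic proteinase, had 424 RPKM in pollinated and 528 in receptive gall flowers, and 541 in pollinated and 234 in receptive seed flowers. Locus 32413, a lipid transfer protein, which carries lipids in the wall, had 82.7 RPKM in pollinated and 204 in receptive gall flowers, and 142 in pollinated and 116 in receptive seed flowers. The seed libraries moved in the proteinase and the gall libraries in the lipid transfer protein.

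Other large negative differences came from single genes of varied function. Locus 9041, a ubiquitin carboxyl-terminal hydrolase, which removes ubiquitin from proteins, had 40.5 RPKM in pollinated and 57.7 in receptive gall flowers, and 34.5 in pollinated and 1.77 in receptive seed flowers. Locus 16368, described as a 3-hydroxyisobutyryl hydrolase, had 235 RPKM in pollinated and 421 in receptive gall flowers, and 77.6 in pollinated and 7.04 in receptive seed flowers. In both, receptive seed flowers were far below the other libraries and the gall libraries were under 2-fold apart. Locus 52773, a hypothetical protein and the second most abundant negative member, had 328 RPKM in pollinated and 931 in receptive gall flowers, and 2914 in pollinated and 1819 in receptive seed flowers. In it the gall libraries moved and seed flowers stayed higher at both stages.

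The highest difference of all tested transcripts, 5.37, belonged to Locus 21181, which has no description. It had 67.2 RPKM in pollinated and 0.842 in receptive gall flowers, and 24.0 in pollinated and 12.4 in receptive seed flowers, with 37 reads in receptive gall flowers, the low library. Descriptions were absent for 536 of the 828 positive members (64.7%), for 148 of the 870 negative ones (17%) and for 19.8% of all tested transcripts. Among transcripts of 1000 bp and over the shares without one were 20.4% of 181 positive members, 1.97% of 507 negative members and 2.92% of all tested. The most abundant positive member also had none. Locus 52922, of 191 bp, had 1434 RPKM in pollinated and 1634 in receptive gall flowers, and 2397 in pollinated and 13289 in receptive seed flowers. Receptive seed flowers alone were high.

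A group put together after values were seen holds descriptions that name Tar1p, an rRNA intron-encoded endonuclease, pg1, nef attachable protein or a cell wall-associated hydrolase. In yeast, Tar1p is encoded within the ribosomal DNA, on the strand opposite the large ribosomal RNA. Of 30 tested transcripts, 14 (46.7%) were at or above 1.5 and 3 at or below -1.5, with a median stage change of -0.39 in gall and -1.98 in seed flowers. Locus 24734, described as Tar1p, had 510 RPKM in pollinated and 614 in receptive gall flowers, and 465 in pollinated and 2403 in receptive seed flowers. Locus 19309, described as a cell wall-associated hydrolase, had 2.03 RPKM in pollinated and 4.30 in receptive gall flowers, and 4.45 in pollinated and 173 in receptive seed flowers. Its difference of 4.2 (95% interval 3.85 to 4.55) came from the receptive seed library. Over its 78 transcripts the group took 2000 RPM in pollinated and 3490 in receptive gall flowers, and 4110 in pollinated and 7580 in receptive seed flowers. Its part in the other results that turn on receptive seed flowers was not tested.

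Locus 8420, described as a streptomycin and spectinomycin adenyltransferase, an antibiotic resistance enzyme of bacteria, had 280 RPKM in pollinated and 266 in receptive gall flowers, and 301 in pollinated and 2547 in receptive seed flowers. With 80591 reads in receptive seed flowers its difference of 3.15 was narrowly bounded (95% interval 3.12 to 3.18). Locus 21901, described as a multimodular transpeptidase-transglycosylase, which builds the cell wall of bacteria, had 599 RPKM in pollinated and 717 in receptive gall flowers, and 1117 in pollinated and 4820 in receptive seed flowers. Locus 34874, a glycine-rich RNA-binding protein, a class that in plants binds and folds RNA, had 1453 RPKM in pollinated and 1393 in receptive gall flowers, and 1305 in pollinated and 3828 in receptive seed flowers. Receptive seed flowers were the highest library in all 3. With the trend with length removed, Locus 21901 (289 bp) and Locus 34874 (139 bp) were inside the threshold, at 1.36 and 1.15. The organism of the sequences with bacterial names is not known from the table. Locus 42, described only as a protein, had 167 RPKM in pollinated and 82.1 in receptive gall flowers, and 16.9 in pollinated and 115 in receptive seed flowers. In it the pollinated seed library was the low one, and gall and seed flowers moved in opposite directions.

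Histones, which package DNA and are made mainly in dividing cells, were among the described positive members. In the cell division list of 106 tested transcripts, 11 (10.4%) were at or above 1.5 and 6 at or below -1.5. The share at or above 1.5 was 8.07% of all tested transcripts and 3.55% of those with a description. With the trend with length removed, 5 and 9 of the list were past the thresholds. Locus 682, histone H2B, had 467 RPKM in pollinated and 264 in receptive gall flowers, and 464 in pollinated and 993 in receptive seed flowers. Locus 1549, histone H3, had 59.8 RPKM in pollinated and 35.1 in receptive gall flowers, and 77.9 in pollinated and 196 in receptive seed flowers. Locus 6096, histone H1, had 80.6 RPKM in pollinated and 38.2 in receptive gall flowers, and 79.3 in pollinated and 152 in receptive seed flowers. The pollinated levels in gall and seed flowers were close, with receptive gall flowers below and receptive seed flowers above them. A further H3 transcript, Locus 28186, had the opposite order, with 41.6 RPKM in pollinated and 66.8 in receptive gall flowers, and 27.6 in pollinated and 7.74 in receptive seed flowers. Of 26 transcripts with the GO term nucleosome, 5 (19.2%) were at or above 1.5 and 1 at or below -1.5. Locus 20996, alpha tubulin, a microtubule subunit, was a negative member, with 184 RPKM in pollinated and 279 in receptive gall flowers, and 189 in pollinated and 72.4 in receptive seed flowers.

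Ribosomal proteins leaned to the positive side. Of 195 tested, 145 had a difference above 0 and the median was 0.51. At or above 1.5 were 16 (8.21%), beside 8.07% of all tested transcripts and 3.55% of those with a description. At or below -1.5 were 7. With the trend with length removed the median was 0.18, with 5 and 9 past the thresholds. Locus 47717, protein S20 of the small subunit, had 163 RPKM in pollinated and 103 in receptive gall flowers, and 197 in pollinated and 394 in receptive seed flowers. Subunits of the respiratory chain and ATP synthase, which make most of the cell's ATP, formed a list put together after values were seen, with 9 of 78 (11.5%) at or above 1.5 and 3 at or below -1.5. Locus 20992, the ATP synthase delta subunit, had 96.2 RPKM in pollinated and 40.7 in receptive gall flowers, and 83.5 in pollinated and 143 in receptive seed flowers. Locus 1793, a regulatory subunit of the 26S proteasome, which degrades tagged proteins, had 61.0 RPKM in pollinated and 24.8 in receptive gall flowers, and 49.7 in pollinated and 65.7 in receptive seed flowers. Receptive gall flowers were lowest and receptive seed flowers highest in all 3.

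In a smaller set of positive members the gall libraries moved. Locus 20932, lipoxygenase, which oxidises fatty acids on the way to jasmonates and leaf volatiles, had 1346 RPKM in pollinated and 259 in receptive gall flowers, and 718 in pollinated and 422 in receptive seed flowers. The level was thus higher in pollinated flowers of both types, past 2-fold in gall flowers alone. Locus 1151, beta-cyanoalanine synthase, which detoxifies the cyanide released in ethylene synthesis, had 55.9 RPKM in pollinated and 11.8 in receptive gall flowers, and 36.3 in pollinated and 30.1 in receptive seed flowers. Locus 3150, like the protein B12D, had 55.7 RPKM in pollinated and 9.75 in receptive gall flowers, and 15.9 in pollinated and 8.73 in receptive seed flowers.

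Another 17 positive members were at least 2-fold higher after pollination in both flower types and by more in gall flowers. Locus 30225, like the IAA-amino acid hydrolase ILR1, which frees auxin from its conjugates, had 55.3 RPKM in pollinated and 0.559 in receptive gall flowers, and 16.2 in pollinated and 0.629 in receptive seed flowers. Locus 5739, a trypsin-like protease inhibitor, had 31.0 RPKM in pollinated and 1.11 in receptive gall flowers, and 13.3 in pollinated and 1.85 in receptive seed flowers. Locus 230, a class IV chitinase, an enzyme that cuts the chitin of fungi and insects, had 62.5 RPKM in pollinated and 5.61 in receptive gall flowers, and 7.16 in pollinated and 1.91 in receptive seed flowers. All 3 were highest in pollinated gall flowers. Pathogenesis-related transcripts as a list had 5 of 47 at or above 1.5 and 5 at or below -1.5 (10.6% each). One on the negative side was Locus 20250, a class I chitinase, with 418 RPKM in pollinated and 588 in receptive gall flowers, and 137 in pollinated and 40.7 in receptive seed flowers.

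Only 2 members with a positive difference were at least 8 times higher in pollinated gall flowers than in each other library, Locus 230 and Locus 5303. Locus 5303, a tubulin beta-1 chain, had 24.3 RPKM in pollinated and 0.648 in receptive gall flowers, and 0.498 in pollinated and 0.513 in receptive seed flowers, a difference of 5.27. Pollinated gall flowers also held the wasp reads. The 490 transcripts whose description names a hymenopteran genus took 767 RPM in pollinated and 0.47 in receptive gall flowers, and 1.04 in pollinated and 0.173 in receptive seed flowers. None of the 490 passed both minimums, so 0 were members. Wasp transcripts whose description names no such genus were not counted, and the organism of Locus 5303 is not known from the table. Transcripts with pollen in the description, 12 of 29 tested, took 863 RPM in pollinated and 937 in receptive gall flowers, and 761 in pollinated and 881 in receptive seed flowers. They gave 0 positive members and 1 negative member, Locus 16091, described as linked to the S3 self-incompatibility locus, with 31.2 RPKM in pollinated and 47.4 in receptive gall flowers, and 29.7 in pollinated and 2.49 in receptive seed flowers.

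The difference in stage change followed transcript length. Positive members had a median length of 448 bp, negative members 1353 bp and all tested transcripts 1540.5 bp. The share of tested transcripts at or above 1.5 was 16.7% for lengths of 100 to 200 bp, 20.9% from 200, 26.3% from 300, 14.2% from 500 and 4.84% from 1000 bp, and 0.905% over 2000 bp. The share at or below -1.5 varied less, from 14.7% at 200 to 300 bp to 7.43% at 1000 to 2000 bp. The median seed stage change was -0.53 in the shortest and 0.27 in the longest bin, whereas the median gall stage change stayed between -0.06 and 0.22. The median log2 ratio of gall over seed RPKM lay between -0.17 and -0.10 in every bin for pollinated flowers, and between -0.90 and 0.21 for receptive flowers. The ratio thus varied with length more in the receptive than in the pollinated pair of libraries.

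**Figure D5:**
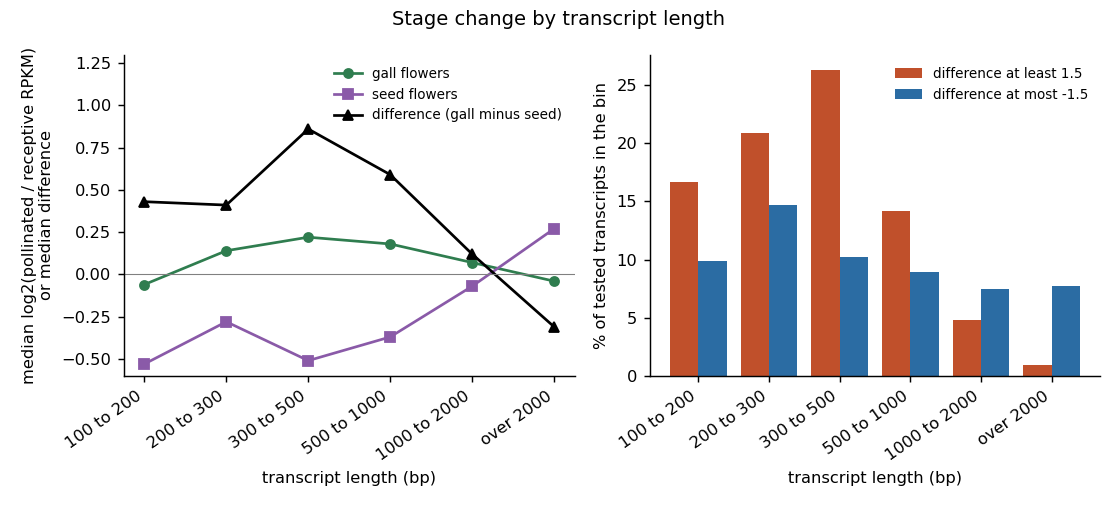
Left, median stage change of gall and of seed flowers (log2 of pollinated over receptive RPKM) and their median difference, by transcript length in bp. Right, the percentage of tested transcripts in each length bin with a difference of at least 1.5 or at most -1.5, where the share on the positive side is 26.3% at 300 to 500 bp and 0.905% over 2000 bp.

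The median stage change at each length was then subtracted within each flower type. After this, 384 transcripts were at or above 1.5 and 993 at or below -1.5, so that 27.9% of those past a threshold were positive, beside 48.8% before. Of the 828 positive members 351 (42.4%) stayed past the threshold, and of the 870 negative members 748 (86.0%). At 1000 bp and over, a limit set after values were seen, there were 181 positive and 507 negative members. Without the trend, 15 transcripts of the cutin and wax list were at or below -1.5 (13 of its 17 members and 2 others), 11 of the phenylpropanoid list, 24 immune receptors and 10 of the photosynthesis list, and 13 of the Tar1p group were at or above 1.5. Histone H2B (Locus 682) and ribosomal protein S20 (Locus 47717) were then at 1.28 and 1.04.

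By approximate 95% intervals for counting error, 467 of the 828 and 635 of the 870 were clear of the threshold itself. Every member was clear of 0, beside 85.2% of all tested transcripts. Choosing members by the size of the difference largely ensures this. At least 1 library had under 50 reads in 118 positive and 203 negative members. Just inside the positive threshold, Locus 28031 (no description) had 149 RPKM in pollinated and 82.9 in receptive gall flowers, and 230 in pollinated and 361 in receptive seed flowers. Just outside it, Locus 22185, a glutaredoxin, had 41.9 RPKM in pollinated and 12.5 in receptive gall flowers, and 17 in pollinated and 14.4 in receptive seed flowers. Just inside the negative threshold, Locus 28190, an alpha-galactosidase, had 18.2 RPKM in pollinated and 49.8 in receptive gall flowers, and 22.6 in pollinated and 21.9 in receptive seed flowers. Just outside it, Locus 23522, the glycolytic enzyme glyceraldehyde-3-phosphate dehydrogenase, had 237 RPKM in pollinated and 497 in receptive gall flowers, and 286 in pollinated and 212 in receptive seed flowers. The threshold lay inside their counting intervals, which were 1.40 to 1.60 for Locus 28031 and -1.57 to -1.43 for Locus 23522.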

How the data were processed

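RNA was purified with a poly(T) oligo and sequenced as paired 100 bp reads. The authors trimmed reads (FastQC 0.10.0 and Trimmomatic 0.22 in the submitters' processing notes), built a joint Oases assembly of the 4 libraries, reduced it to 1 sequence for each locus, and mapped reads back in CLC Genomics Workbench. Read counts (all, and unique alone) were used as deposited. The RPKM was deposited by the authors and was rebuilt from counts and lengths to within 0.0005. Genes are named as in the protein descriptions of the table, and 12 deposited columns that repeat others were not used. Transcript sequences were not analysed here.

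Differences in stage change were computed from RPKM in python 3.11.15, without a pseudocount. Intervals are exact conditional odds-ratio intervals on reads (scipy 1.17.1) scaled by library totals, and the TMM alternative used edgeR 4.0.16. The method was tested on simulated data. With 1 library per group there is no residual degree of freedom, so no p-value is given. Transcripts named by rule were, per direction, the 8 largest differences (at least 50 reads per library, 300 bp and a description). The 3 with the highest mean RPKM and the 2 nearest each side of the threshold were added. So was the most abundant member of at least 300 bp from each of 33 word lists with at least 3 members. Not all of these are described above. Many transcripts described above were instead chosen after their values were seen, some in place of a list's pick and with a larger difference. The 3 further lists were also chosen after values were seen. The members and lists were chosen with earlier results of these data known. For the length alternative, the median stage change in each of 20 length bins of equal size was subtracted, separately for gall and seed flowers. Other alternatives were uniquely mapped reads, centring, other read and RPKM minimums, a pseudocount of 1, thinning to the smallest library, length and description filters, removal of hymenopteran matches and other thresholds.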

Additional observations from a re-analysis of the deposited data

Results flagged for a closer look

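In 11 of the transcripts named by rule, gall and seed flowers moved in opposite directions, each by at least 2-fold. With 1 library per group this opposition was not tested. The difference in stage change was 3.79 for Locus 42 (described only as a protein), higher after pollination in gall and lower in seed flowers. The other 10 were lower after pollination in gall and higher in seed flowers. Their differences were -6.19 for Locus 20881 (germacrene D synthase), -4.59 for Locus 171 (pectin methylesterase), -4.32 for Locus 6257 (a phox domain protein), -4.21 for Locus 648 (ABCG32), -4.13 for Locus 14949 (a CC-NBS-LRR protein) and -3.84 for Locus 42519 (chalcone synthase). They were -4.59 for Locus 48702 (no description), -2.97 for Locus 24923 (chalcone synthase), -2.04 for Locus 28963 (an Aux/IAA protein) and -3.71 for Locus 11848 (a heat shock protein). Over all members, 53 with a positive and 88 with a negative difference had this opposition.

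A further 180 transcripts had an RPKM above 20 in some library but under 10 reads in at least 1, and so stood outside the comparison. In 103 of them only receptive seed flowers were under the minimum, and with that library set to the minimum 62 of the 103 had a difference at or below -1.5. In 51 only pollinated gall flowers were above the minimum. The library under the minimum was pollinated gall alone for 3, receptive gall alone for 1 and pollinated seed alone for 4.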

How the results depend on the processing

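None of the 52 named transcripts followed changed sign in any alternative (312 values that could be recomputed), and 44 were past the threshold in each alternative run. They were chosen for large differences in these same reads, which every alternative reused, so kept signs were largely fixed in advance. They say nothing about variation between flower pools. Counts are given as positive members, negative members, positive with only gall or only seed libraries moving, and negative with only gall or only seed moving, and counts within 1.5 times are left out. Without an RPKM minimum there were 1803 and 1538, of which 498 and 838, and 194 and 1093. With an RPKM above 5 there were 1415 and 1362, of which 373 and 668, and 147 and 986. With an RPKM above 20 in all 4 libraries there were 366 and 242 (60.2% positive), of which 96 and 167, and 36 and 148. With the trend with length removed the 384 positive ones (27.9% of those past a threshold, beside 48.8%) had 110 and 165. At 1000 bp and over, chosen after the data were seen, there were 181 and 507 (26.3% positive), of which 45 and 69, and 44 and 375. At 300 bp and over, 254 positive ones moved in seed only. With a description there were 292 positive (28.8% of those past a threshold), of which 69 and 131. A threshold of 1 gave 1765 and 1543, and of 2 gave 291 and 470 (38.2% positive). With moving set at 1.5, only gall and only seed moved in 84 and 202 positive members, and only gall in 41 negative ones. Uniquely mapped reads gave 805 and 850, TMM scaling 763 and 912, thinning to the smallest library 790 and 874, and a pseudocount of 1 gave 754 and 794. The causes were not tested. No paired analysis was possible because each group has 1 library. The receptive seed library, with 11584069 mapped reads, limits precision most, and no value separates its members' levels from variation between flower pools.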
